A study of Saccharomyces cerevisiae with 12 samples.

Results

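The comparison set the transcriptome of the S288c wild type against that of the Σ1278b wild type, the pair of laboratory strains of Saccharomyces cerevisiae in which MSS11 was studied. It rests on 2 of the 12 arrays of the series, chosen by their titles, with 1 array for each strain. The S288c wild type was BY4742, which the study's strain list gives as MATα his3Δ1 leu2Δ0 lys2Δ0 ura3Δ0. The Σ1278b wild type was given by the labels as MATα with hisG replacements of HIS3, LEU2 and TRP1 (his3Δ::hisG, leu2Δ::hisG, trp1Δ::hisG) and the ura3-52 allele. The study's strain list names a Σ1278b strain with the same 4 marker alleles as MATa, so the mating type of this strain is not settled by its descriptions. Both carried an empty multicopy plasmid, were grown in synthetic dropout medium with glucose, and were read on GeneChip Yeast Genome arrays, which measure a transcript by a set of short probes. A further 3 arrays of a Σ1278b wild type with an empty vector, here called the first set, served as a second check on the Σ1278b levels. Their vector carried another marker than that of the Σ1278b array of the pair, here called the second set. The first set is thus no plain replicate of the second. The S288c and Σ1278b strains with extra MSS11 on the same multicopy plasmid, with 1 array each, gave a second pair of cultures that shares no array with the wild types. With 1 array a side, these 2 arrays give no test of a strain difference.

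S288c is the strain whose genome was sequenced first, and it neither forms filaments nor invades agar because its allele of FLO8, an activator of adhesin genes, is not functional. Σ1278b is used for filamentous and invasive growth, which depends on the adhesin Flo11. Other known strain-variable genes include HAP1, a heme-dependent activator of respiratory and sterol genes that is interrupted by a Ty1 element in S288c, and AMN1, which keeps mother and daughter cells attached in many isolates but not in S288c. Genes near chromosome ends are known to vary in presence and copy number between strains. The probes are designed to the S288c genome. An absent gene, a divergent target sequence and a low transcript level thus cannot be told apart where a probe set shows no signal in Σ1278b. Divergence and a lower transcript level likewise cannot be told apart where the Σ1278b signal is lower but above background.

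Of the 5498 S. cerevisiae probe sets (5449 genes), 473 (8.6%) differed at least 2-fold with the brighter array above its background. The background of an array was the 95th percentile of its 1747 Schizosaccharomyces pombe probe sets, a log2 signal of 4.77 on the S288c array and 4.88 on the Σ1278b array. Of the 473, 293 (5.33%) were higher and 180 (3.27%) lower in S288c. Differences were larger on the higher side, where 107 probe sets differed at least 4-fold, against 39 on the lower side. Replicate arrays of one group differed by the same rule at 0 to 7 probe sets over 6 pairs, and the Σ1278b wild types of the 2 sets at 78 to 94 over 3 pairs. The median log2 difference over all genes was -0.04. In the plot of all probe sets, most strain differences lie above the dim range of both arrays, and a separate column of probe sets with high S288c signal stands at the left edge.

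**Figure D1:**
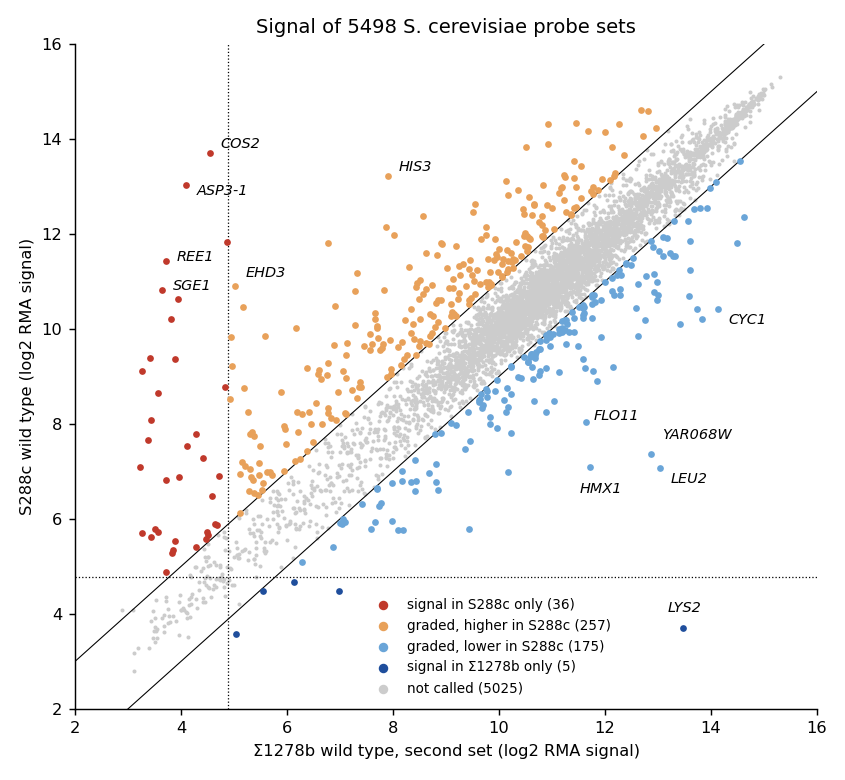
Log2 RMA signal of the S288c wild type array (vertical axis) against the second-set Σ1278b wild type array (horizontal axis), 1 point a probe set. Solid lines mark 2-fold, dotted lines the background of each array, and colours the 36 probe sets with signal in S288c only, the 5 with signal in Σ1278b only, and the 257 higher and 175 lower graded differences.

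The called probe sets were separated into those with no signal in one strain and graded differences. In 36 probe sets (0.655% of all) signal was present in S288c and at or below background in Σ1278b, and in 5 (0.0909%) the reverse held. The other 432 were above background on both arrays, with 257 higher in S288c by a median of 3.12-fold and 175 lower by a median of 2.49-fold. Among them were LEU2, at 7.06 in S288c, and HIS3, at 7.90 in Σ1278b, each given as deleted or replaced in that strain. A graded call thus does not show that the gene is present in both strains. The line between the classes was sharp for some genes and not for others. ARR1, at 4.86 in Σ1278b, lay just under the background, and SPO11, at 4.83, likewise. DAN1, at 4.92, SNZ3, at 4.93, YLR157W-E, at 4.96, and EHD3, at 5.02 in Σ1278b, lay just above it and were counted as graded. At the 2-fold line, LYS12, with a log2 difference of -1.0003, was the last called and CDC21, with -0.9998, the first not called.

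The probe sets with signal in S288c only were led by COS2 and ASP3-1. COS2, a member of a subtelomeric membrane protein family, had a log2 signal of 13.70 in the S288c wild type, against 4.54 in the second-set Σ1278b wild type and 4.19 ± 0.02 (SD, n = 3) in the first set. ASP3-1, a cell wall asparaginase of nitrogen-starved cells, had 13.02 in S288c, against 4.09 and, in the first set, 3.90, 4.20 and 4.42 in Σ1278b. The groups were far apart for both genes, by at least 451-fold for COS2 and at least 281-fold for ASP3-1. These folds are bounds, set against the background rather than the dim signal, since a signal under background has no level.

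Genes of arsenic resistance were among the same class. ARR1, the transcription factor of the cluster, had 11.84 in S288c, against 4.86 in the second-set Σ1278b wild type and 4.92, 4.62 and 4.53 in the first set, a bound of at least 124-fold. ARR2, the arsenate reductase, had 7.09 in S288c against 3.23 in Σ1278b, and ARR3, the arsenite exporter, 5.62 against 3.44. All 3 genes of the cluster were called, although ARR1 was above the background of 3 of the 10 Σ1278b arrays, with a highest signal of 5.04.

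REE1, a regulator of enolase expression, had 11.43 in S288c, against 3.72 in the second-set Σ1278b wild type and 3.67, 3.81 and 3.54 in the first set. SGE1, a drug exporter of the plasma membrane, had 10.83 in S288c against 3.64 in Σ1278b, and AIF1, a mitochondrial cell death effector, 10.62 against 3.95. Their bounds were at least 93.4-fold, 61.4-fold and 53.3-fold. SNO3, a member of the SNO and SNZ family of vitamin B6 and thiamine metabolism, had 10.21 in S288c against 3.81 in Σ1278b, and its neighbour SNZ3 9.83 against 4.93. VTH1, a homologue of the vacuolar sorting receptor Vps10, had 9.36 in S288c against 3.89 in Σ1278b.

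SPO11, the nuclease that opens meiotic recombination, had 8.77 in S288c and 4.83 in Σ1278b, but was above background on 7 of the 10 Σ1278b arrays, with a highest signal of 5.28. IMA5, an isomaltase, had 7.27 in S288c and 4.41 in Σ1278b, with a bound of at least 5.23-fold. DDI3, a gene induced by DNA damage, had 7.53 in S288c and 4.10 in Σ1278b. YHL009W-B (9.38 against 3.41), YLR156W (8.64 against 3.56), YIR042C (8.08 against 3.43), YJL218W (7.78 against 4.28), YPR196W (7.65 against 3.38), YNR071C (6.91 against 4.71) and RRT15 (6.83 against 3.72) showed the same pattern in S288c against Σ1278b.

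ENA5, a sodium pump of the plasma membrane, was read by 2 probe sets that disagreed in class. One had 9.11 in S288c against 3.27 in Σ1278b, and the other, whose probes are shared with near-identical copies, had 11.32 in S288c against 9.24 in Σ1278b. Shared probes occurred in 8 of the 36 probe sets, COS2, ASP3-1, SNO3 and VTH1 included, so that their signal can sum several gene copies.

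The low signal in Σ1278b held over the other arrays of the strain for most of these probe sets. On none of the 10 Σ1278b arrays of the series did 27 of the 36 rise above background, and 35 of the 36 were above background on both S288c arrays. At least 2-fold outside the range of all 4 Σ1278b wild type arrays were 32 of the 36. Bounds were at least 4-fold for 19 and under 2-fold for 13, where signal in S288c was itself low. HXT9, a hexose transporter, marked the lower end with 4.88 in S288c and 3.72 in Σ1278b, and gets no fold. A second HXT9 probe set, with shared probes, had 6.55 in S288c and 5.83 in Σ1278b and was not called. COS10 went against the class in the first set, where Σ1278b had 6.41 ± 0.18 (SD, n = 3) against 5.66 in S288c.

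**Figure D2:**
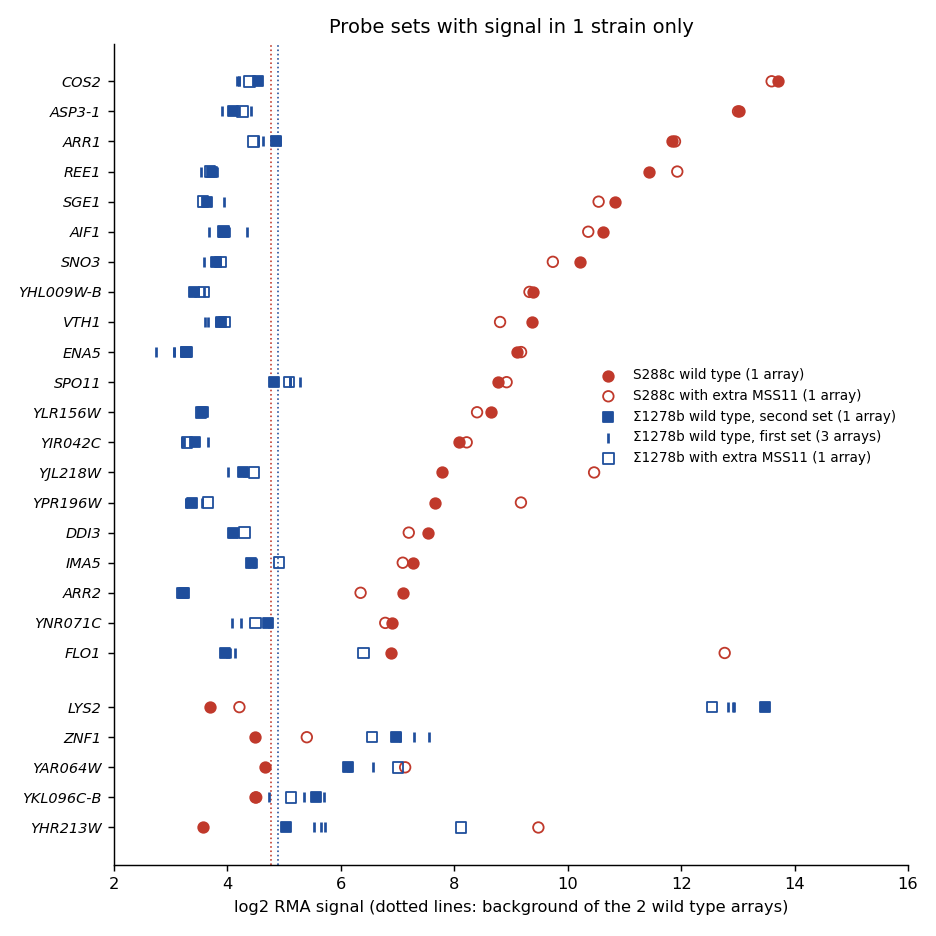
Log2 RMA signal (horizontal axis) of the 20 genes with the highest bound among those with signal in S288c only and, below the gap, the 5 with signal in Σ1278b only. Circles are S288c and squares and ticks Σ1278b arrays, filled for wild types and open for strains with extra MSS11, and dotted lines the background. With extra MSS11, FLO1 reached 6.40 in Σ1278b, and YAR064W 7.13 and YHR213W 9.48 in S288c.

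Signal in Σ1278b only was seen for LYS2, ZNF1, YAR064W, YKL096C-B and YHR213W. LYS2, the aminoadipate reductase of lysine synthesis that is deleted in BY4742, had 3.70 in S288c, against 13.47 in the second-set Σ1278b wild type and 12.83, 12.91 and 12.94 in the first set, a bound of at least 417-fold. ZNF1, a zinc cluster regulator of respiratory growth, had 4.48 in S288c against 6.97 in Σ1278b, a bound of at least 4.61-fold. The other 3 were dim in Σ1278b, with YAR064W at 6.12, YKL096C-B at 5.55 and YHR213W at 5.04. YKL096C-B did not lie 2-fold outside all 4 Σ1278b wild type arrays.

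Of the 5 measured marker genes of the genotypes, 1 was higher (HIS3) and 2 were lower (LYS2 and LEU2) in S288c. LEU2, given as deleted in both strains, had 7.06 in S288c. In Σ1278b it had 13.04 in the second-set wild type and 14.99 ± 0.01 (SD, n = 3) in the first set. The second-set signal goes against the labelled leu2 deletion. The first-set vector carried another marker than that of the second set, and the study's plasmid list includes LEU2 vectors. The source of the LEU2 signal was not tested in either set. URA3, the marker of the multicopy plasmid, had 14.996 in S288c and 14.73 in the second-set Σ1278b wild type, while the first set had 8.64 ± 0.07 (SD, n = 3). The 2 Σ1278b sets thus differed in the signal of both marker genes, and their arrays were not averaged together. HIS3 had 13.23 in S288c, whose his3Δ1 allele is a partial deletion, against 7.90 in Σ1278b. MET17, intact in both genotypes, had 14.24 in S288c and 14.41 in Σ1278b, and the TRP1 transcript was not among the measured genes.

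Both strains carried the markers of MATα cells, but a-cell transcripts were higher in S288c. None of the 5 α-specific genes was called, with a median log2 difference of 0.23, and MF(ALPHA)1, which encodes the α-factor pheromone, had 14.48 in S288c and 14.63 in Σ1278b. All 7 a-specific genes were higher in S288c, beside 5.32% of all genes, with a median difference of 2.79 against -0.04 over all genes. STE2, the α-factor receptor of a cells, had 12.14 in S288c, against 7.86 in the second-set Σ1278b wild type and 7.79, 7.96 and 7.78 in the first set. AGA2, the adhesion subunit of a-agglutinin, had 10.47 in S288c, against 5.18 and, in the first set, 5.28, 5.44 and 5.01 in Σ1278b. None of these arrays overlapped, and the fold was 19.4 for STE2 and 39.3 for AGA2.

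MFA2 (10.02 in S288c against 6.18 in Σ1278b) and MFA1 (9.70 against 7.13) encode the a-factor pheromone, BAR1 (9.17 against 6.38) the α-factor protease, STE6 (8.54 against 7.32) the a-factor exporter, and ASG7 (8.68 against 5.89) a modulator of pheromone signalling. Only STE6 failed to lie 2-fold outside all 4 Σ1278b wild type arrays. Summed over the 7 a-specific genes, the linear intensity was 9158 on the S288c wild type array and 3444 on the S288c array with extra MSS11, against 744 to 1131 over the 10 Σ1278b arrays. All 7 genes were above background in Σ1278b too.

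Genes induced by mating pheromone were higher in S288c as well. Of 18 measured, 13 were called higher, beside 5.32% of all genes, and none lower, with a median difference of 1.26. Of the 18, 12 lay at least 2-fold above all 4 Σ1278b wild type arrays, beside 3.98% of all genes. Among all probe sets called higher, 74.7% did so. PRM2, a pheromone-regulated membrane protein, had 8.75 in S288c, against 5.18 in the second-set and 5.10 ± 0.11 (SD, n = 3) in the first-set Σ1278b wild type, an 11.9-fold difference. FIG1, a membrane protein of mating cells, had 7.75 in S288c against 5.38 in Σ1278b, FUS1, which acts in cell fusion, 12.18 against 10.81, and KAR4, a regulator of nuclear fusion genes, 12.42 against 11.35. The a-specific signal moved with this list, with a summed intensity of the list of 40049 in S288c, against 17089 in the second-set Σ1278b wild type, and its part in the result was not tested. Of 12 haploid-specific genes, 1 was higher (SST2, 11.74 against 10.49) and 1 lower (FUS3, 11.24 against 12.26), beside 5.32% and 3.27% of all genes. Neither gene lay 2-fold outside all 4 Σ1278b wild type arrays.

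Genes of daughter cell separation were higher in S288c, on a list that also holds AMN1, named above as keeping cells attached in many isolates. Of 10 measured, 9 were higher in S288c, beside 5.32% of all genes, and none lower. The median difference was 1.92, and all 9 lay at least 2-fold outside the 4 Σ1278b wild type arrays. Over all genes, 3.98% were higher in this way, and among all probe sets called higher 74.7% were. DSE1, a daughter-specific protein, had 12.37 in S288c, against 8.57 in the second-set Σ1278b wild type and 9.35, 9.26 and 9.29 in the first set. DSE2, a glucanase-like secreted protein, had 13.84 in S288c, against 10.50 and, in the first set, 10.96, 10.90 and 11.16 in Σ1278b. CTS1, the chitinase that cuts the septum, had 14.17 in S288c, against 11.67 and, in the first set, 12.16, 12.24 and 12.32 in Σ1278b.

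The folds were 13.9 for DSE1, 10.1 for DSE2 and 5.64 for CTS1, with no overlap between the strains. SCW11 (13.12 in S288c against 10.14 in Σ1278b), a cell wall glucanase, EGT2 (12.99 against 11.19), which acts in cell separation, and SUN4 (12.96 against 11.17), a septation protein, followed. AMN1, the antagonist of mitotic exit named above, is on the list too. It was higher, at 13.44 in S288c, against 11.54 and, in the first set, 11.82, 11.81 and 11.67 in Σ1278b. ASH1, a daughter-specific repressor, had 12.09 in S288c and 11.30 in Σ1278b and did not pass 2-fold.

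Heme-activated genes were lower in S288c. Of 13 targets of Hap1, 7 were lower and none higher, beside 3.27% of all genes that were lower, with a median difference of -1.37. All 7 lay 2-fold outside the 4 Σ1278b wild type arrays. Over all genes, 2.29% were lower in this way, and among all probe sets called lower 70% were. CYC1, the main cytochrome c, had 10.41 in S288c, against 14.13 in the second-set Σ1278b wild type and 14.04, 13.94 and 13.90 in the first set. YHB1, a nitric oxide oxidoreductase, had 12.36 in S288c, against 14.62 and, in the first set, 14.46, 14.51 and 14.50 in Σ1278b. The S288c array lay below every Σ1278b wild type array for both, by 13.2-fold for CYC1 and 4.80-fold for YHB1 against the second set.

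CYC7 (7.90 in S288c against 9.96 in Σ1278b), the second cytochrome c, CYT1 (10.99 against 12.98), cytochrome c1, CYB2 (8.62 against 10.23), lactate dehydrogenase, and COX5A (12.55 against 13.91), a cytochrome c oxidase subunit, were lower in the same way. The transcript of HAP1 itself did not pass 2-fold, with 11.24 in S288c, against 10.98 in the second-set and 11.46 ± 0.09 (SD, n = 3) in the first-set Σ1278b wild type. COX5B, the hypoxic counterpart of COX5A, was higher, with 11.80 in S288c against 8.91 in Σ1278b. ROX1, the heme-induced repressor of hypoxic genes, had 11.13 in S288c and 11.36 in Σ1278b.

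Sterol synthesis and the respiratory chain were shifted in the same direction, in smaller steps. Of 24 ergosterol genes, 7 were lower in S288c, beside 3.27% of all genes, and none higher, the median difference was -0.77, and 22 had a negative difference. HMG1, the main HMG-CoA reductase and a Hap1 target as well, had 10.78 in S288c, against 12.92 and, in the first set, 12.85, 12.98 and 12.97 in Σ1278b. ERG28 (11.86 in S288c against 13.60 in Σ1278b), a scaffold of the sterol enzymes, ERG5 (11.59 against 13.22), a desaturase, and MVD1 (12.54 against 13.80), of the mevalonate pathway, were the next in size. All 4 lay 2-fold outside the Σ1278b wild type arrays.

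Of 33 respiratory chain and ATP synthase genes, 7 were lower, beside the same 3.27%, and none higher, the median was -0.56, and 32 had a negative difference. CYC1, CYT1, COX5A and QCR2 are on the Hap1 list as well, with CYC1 the largest difference of both lists. RIP1, the iron-sulfur protein of complex III, had 11.54 in S288c and 13.28 in Σ1278b, and SDH1, of succinate dehydrogenase, 10.34 and 11.60. SDH1 did not lie 2-fold outside all 4 Σ1278b wild type arrays. The citric acid cycle had 1 called gene of 13, the same SDH1, and a median of 0.05.

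HMX1, the heme oxygenase, stood among the largest lower differences, with 7.10 in S288c, against 11.72 and, in the first set, 11.10, 11.12 and 11.10 in Σ1278b, a 24.7-fold difference. It was listed with the iron regulon, where 4 of 23 genes were lower, beside 3.27% of all genes, and none higher. The list median was 0.11. FRE1, a ferric and cupric reductase, was among the 4, at 8.25 in S288c against 10.88 in Σ1278b. Of 7 copper genes 3 were lower, beside the same 3.27%, with CTR1, the high-affinity copper transporter, at 9.09 in S288c against 11.14 in Σ1278b. CYB5 (10.21 in S288c against 13.83 in Σ1278b), cytochrome b5, SUE1 (5.78 against 9.44), which acts in the breakdown of unstable cytochrome c, and PLN1 (10.70 against 13.58), a lipid droplet protein, belong to the 15 largest graded differences on the lower side.

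Many stress and reserve carbohydrate genes were higher in S288c. Of 25 stress and storage genes, 11 were higher, beside 5.32% of all genes, and none lower, with a median of 0.82. HSP12, a membrane-associated stress protein, had 14.31 in S288c, against 10.92 in the second-set Σ1278b wild type and 10.62, 11.02 and 11.23 in the first set. The difference was 10.5-fold against the second set, but HSP12 reached 13.32 on another Σ1278b array. With extra MSS11 the HSP12 difference was 1.51 on the log2 scale, in place of 3.39. The list median was then 1.12, with 13 of 25 genes higher, beside 4% of all genes, and none lower. GPH1 (11.75 in S288c against 9.19 in Σ1278b), glycogen phosphorylase, and GSY2 (12.14 against 9.75), glycogen synthase, were higher too, as was YGP1 (14.33 against 11.45), a secreted glycoprotein of starved cells. Among 27 heat shock and chaperone genes 6 were higher, beside 5.32% of all genes, and none lower, and the list median was -0.03. HSP26, a small heat shock protein, led at 11.98 in S288c against 8.02 in Σ1278b. The Hsp70-family genes SSE2 (10.43 against 8.33) and SSA4 (10.53 against 9.09) were among the 6.

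HSP30, a plasma membrane stress protein, had 11.31 in S288c and 8.30 in the second-set Σ1278b wild type, but 11.01 ± 0.15 (SD, n = 3) in the first set, and so did not hold. The culture stage of both strains is given by the labels as early stationary and by the study's methods as exponential, and small differences in stage between the cultures cannot be told apart from strain differences. Of 33 ribosome biogenesis genes none passed 2-fold, with 32 negative differences and a median of -0.34. Of the 128 genes on the ribosomal protein list, which holds RPP1 too, 1 passed 2-fold, RPL4B, at 13.54 in S288c against 11.42 in Σ1278b.

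**Figure D3:**
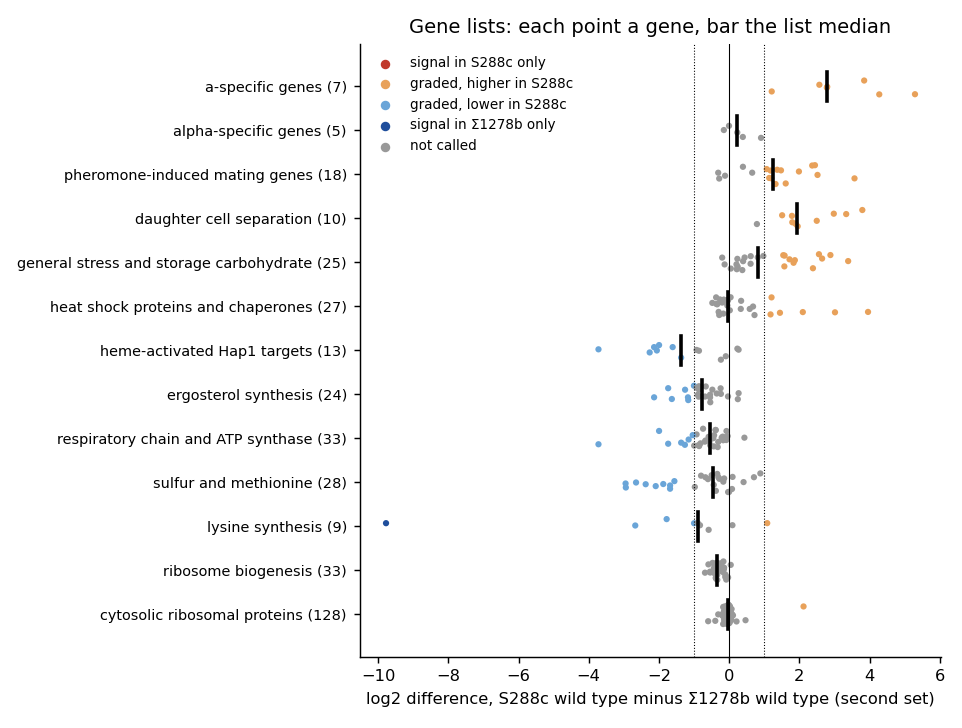
Log2 difference, S288c wild type minus second-set Σ1278b wild type (horizontal axis), of each measured gene of 13 lists, with the number of genes in parentheses, the list median as a black bar and 2-fold as dotted lines. The a-specific, pheromone-induced and daughter separation lists lie to the right with medians of 2.79, 1.26 and 1.92, and the Hap1 targets to the left with a median of -1.37.

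Some genes of sulfur and lysine metabolism were lower in S288c. Of 28 sulfur and methionine genes, 9 were lower (3.27% over all genes) and none higher, with a median of -0.47, and 6 of the 9 lay 2-fold outside all 4 Σ1278b wild type arrays. The called genes were led by MMP1 (9.19 in S288c against 12.14 in Σ1278b), a permease for S-methylmethionine, and MUP3 (8.90 against 11.84), a permease for methionine. MHT1 (9.12 against 11.77) and a further methionine permease, MUP1 (11.23 against 13.61), followed. Of 9 lysine genes, 4 were lower (3.27% over all genes), and 1 of the 4 is the deleted marker LYS2. The 1 higher gene was LYS5, which activates Lys2, at 10.93 in S288c against 9.84 in Σ1278b. LYS9, saccharopine dehydrogenase, had 11.81 in S288c and 14.48 in Σ1278b, and LYS4, homoaconitase, 11.54 and 13.32.

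Genes of arginine, histidine, branched-chain and aromatic amino acid synthesis leaned the other way, with medians of 0.62, 0.59, 0.35 and 0.30. In the strains with extra MSS11 the medians of these lists were 0.07, -0.06, -0.15 and -0.13, so the lean did not carry over. Few of them passed 2-fold, with ARG7 (13.84 in S288c against 12.12 in Σ1278b), of ornithine synthesis, the largest of the arginine genes. HIS3 was the one called histidine gene, and none of the 12 branched-chain genes was called.

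Nutrient transport and salvage genes differed one by one rather than as lists. PHO3, a thiamine-repressed acid phosphatase, had 11.80 in S288c, against 6.78 in the second-set and 6.96 ± 0.29 (SD, n = 3) in the first-set Σ1278b wild type. Together with SNO3 and SNZ3 it made up the 3 of 18 thiamine and pyridoxine genes that were higher, beside 5.32% of all genes. Lower were 4 of the 18, beside 3.27% of all genes. THI13, of thiamine precursor synthesis, was among the 4, at 8.76 in S288c against 10.15 in Σ1278b. Among nitrogen-repressed genes DUR3, a urea and polyamine transporter, was higher, with 11.17 in S288c against 7.33 in Σ1278b, and DAL1, allantoinase, lower, with 6.98 against 10.17.

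ZPS1, a zinc-regulated cell wall protein, was lower, with 10.10 in S288c against 13.42 in Σ1278b and 14.47 ± 0.14 (SD, n = 3) in the first set. HXT2, a glucose transporter, was lower, with 9.86 against 12.63, and HXT5, a hexose transporter of slow growth, higher, with 8.33 against 6.78. PHO84, the phosphate transporter, had 9.05 in S288c against 6.59 in Σ1278b, and CTP1, the mitochondrial citrate carrier, 10.42 against 13.73. Of 4 water and glycerol channel genes, 3 were lower, beside 3.27% of all genes. They were AQY1 at 5.94 in S288c against 7.65 in Σ1278b, AQY2 at 9.12 against 10.78 and YLL053C at 10.71 against 11.79. AQY2 (YLL052C) and YLL053C are adjacent by locus name, so they may not count as independent genes. AQY1 alone of the 3 lay 2-fold outside all 4 Σ1278b wild type arrays.

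The flocculins, the adhesins of the yeast surface, did not share a direction, with 2 of 4 measured higher and 1 lower, beside 5.32% and 3.27% of all genes. FLO11, which is required for filaments and agar invasion, had 8.03 in S288c, against 11.64 in the second-set Σ1278b wild type and 11.95, 12.18 and 12.27 in the first set, a 12.1-fold lower signal. FLO1 had 6.88 in S288c, against 3.96 in the second-set and 4.06 ± 0.07 (SD, n = 3) in the first-set Σ1278b wild type, and FLO9, whose probes are shared, 9.85 against 8.70. FLO9 did not lie 2-fold outside all 4 Σ1278b wild type arrays. FLO10 had 7.92 in S288c and 8.23 in Σ1278b and was not called, and FLO5 was not among the measured genes. The signals of near-identical FLO copies cannot be told apart by shared probes.

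Of the 20 regulators of filamentous growth, 4 were lower, beside 3.27% of all genes, and none higher, with a median of -0.05. YAP6, a stress-related transcription factor, was the largest at 7.81 in S288c against 10.22 in Σ1278b. Of 16 regulators with strain-variable alleles, 2 (AMN1 and PHO84) were higher, beside 5.32% of all genes, and none lower, with a median of 0.09. FLO8 (9.92 in S288c against 10.34 in Σ1278b) and MSS11 (8.49 against 8.22) did not pass 2-fold. MIT1, an activator of filamentous growth, had 10.01 against 11.20, and MSB2, the mucin sensor of the filamentation pathway, 10.80 against 12.13. Among the mannoproteins of the TIR and DAN family 3 of 7 were higher in S288c, beside 5.32% of all genes, and none lower. They were DAN1 at 8.53 against 4.92, TIR2 at 10.54 against 8.81 and TIR1 at 9.68 against 8.67. Of 29 measured cell wall genes 4 were higher, beside 5.32% of all genes, and none lower, CWP1, a wall mannoprotein, at 12.63 in S288c against 9.54 in Σ1278b in the lead.

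Strain differences clustered along the chromosomes. Of the 34 genes with signal in S288c only, 21 (61.8%) were among the 10 outermost protein-coding genes of a chromosome arm, against 235 of all 5446 measured and placed genes (4.32%). The share was 7.45% for graded higher and 11% for graded lower genes, and 1 of the 5 genes with signal in Σ1278b only. Order along the chromosome was taken from the RefSeq gene table, and genes without a probe set were skipped. A probe set with shared probes was placed at its annotated gene only, though its signal can come from other copies.

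Runs of at least 3 neighbouring measured genes called the same way numbered 11, of which 9 were higher and 2 lower in S288c. They held 40 genes, 18 of them with signal in S288c only, and 37 of the 40 lay 2-fold outside all 4 Σ1278b wild type arrays. The longest run had 6 genes near the right end of chromosome XVI, from OPT2, an oligopeptide transporter (11.13 in S288c against 9.49 in Σ1278b), through YPR196W, SGE1, ARR1 and ARR2 to ARR3. In it all genes beyond OPT2 had signal in S288c only. On the left arm of chromosome X, YJL218W, REE1 and IMA5 stood together with signal in S288c only.

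On chromosome VIII, YHL009W-A, YHL009W-B and YHL008C (9.69 in S288c against 7.60 in Σ1278b) were neighbours. Both YHL009W genes have shared probes. On chromosome XIV a run of 5 led from DSE4 to YNR071C. In it PDR18, a drug transporter, had 5.29 in S288c against 3.83 in Σ1278b. A run of small differences on chromosome XIII joined CMC4, ICY1 and YMR196W, at 1.03, 1.35 and 1.81 on the log2 scale.

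On the left arm of chromosome VI, DDI3, SNO3 and SNZ3 were neighbours, and on chromosome XII ASP3-1, YLR156W and YLR157W-E (9.22 in S288c against 4.96 in Σ1278b). All genes of both runs have shared probes, so their signal can come from copies at other places. On chromosome IV, EHD3, a hydrolase of valine breakdown (10.90 in S288c against 5.02 in Σ1278b), lay beside KRS1, the cytosolic lysyl-tRNA synthetase (13.89 against 10.92), and ENA5. EHD3 had 5.37, 5.27 and 5.10 in the first set and was, at 58.7-fold, the largest graded difference on the higher side. The left end of chromosome I held a run of 5 from YAL064W to BDH2 (10.48 in S288c against 6.90 in Σ1278b), a dehydrogenase, with FLO9 and GDH3, glutamate dehydrogenase (9.04 against 6.75), inside it.

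The right end of chromosome I went the other way, with YAR064W, YAR066W (5.79 in S288c against 7.59 in Σ1278b) and YAR068W lower in S288c. YAR068W had 7.38 in S288c, against 12.87 in the second-set Σ1278b wild type and 12.40, 12.59 and 12.37 in the first set. It was, at 45.0-fold, the largest difference on the lower side after LYS2 and LEU2. The second lower run, MEF2, GSH1 and LSB6, was small in size, at -1.31, -1.08 and -1.02 on the log2 scale, and LSB6 did not hold against the first set.

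**Figure D4:**
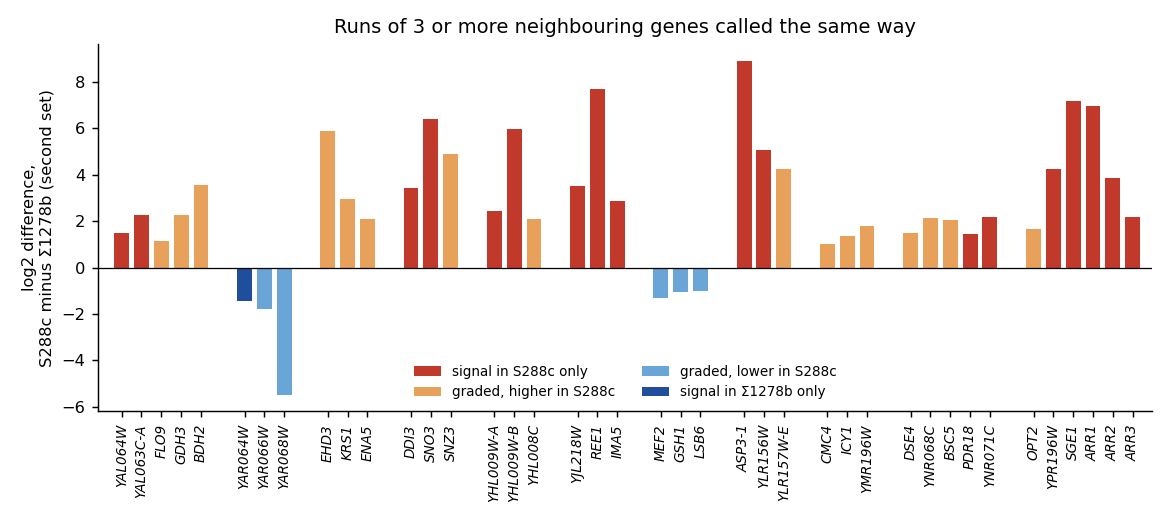
Log2 difference, S288c wild type minus second-set Σ1278b wild type (vertical axis), of the 40 genes in the 11 runs of at least 3 neighbouring measured genes called the same way, in chromosome order with a gap between runs. Dark red bars are the 18 genes with signal in S288c only, and the 2 runs below 0 are those on chromosome I (YAR064W to YAR068W) and chromosome X (MEF2 to LSB6).

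Against the 4 Σ1278b wild type arrays together, 345 of the 473 called probe sets (72.9%, or 6.28% of all probe sets) held, that is, S288c lay at least 2-fold outside the whole range of the 4. Held were 219 of 293 higher and 126 of 180 lower probe sets. The largest differences were among them, including each of the 15 largest graded differences on either side. Besides HSP30 and COS10, the genes that did not hold included PHM8, a phosphatase, at 9.11 in S288c, 7.06 in the second-set and 9.50 ± 0.07 (SD, n = 3) in the first-set Σ1278b wild type, and PAU14, a seripauperin, at 9.79, 8.39 and 10.28 ± 0.05 (SD, n = 3).

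In the second pair of cultures, both with extra MSS11, 355 probe sets were called, 220 higher (4%) and 135 lower (2.46%) in S288c. Of the 293 higher in the S288c wild type, 182 were also higher in that pair, which is 62.1% of the wild type list and 82.7% of the list with extra MSS11. Of the 180 lower, 88 were also lower, 48.9% and 65.2% of the lists. The sign was the same in 462 of the 473, and 1 probe set was called in opposite directions.

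The lists differed in how they carried over. With extra MSS11, 9 of 10 daughter separation genes were again higher and 7 of 13 Hap1 targets again lower, with list medians of 1.87 and -1.36, beside 4% of all genes higher and 2.46% lower in this pair. Of the a-specific genes 4 of 7 were called higher, with a median of 1.34, AGA2 at 8.92 in S288c against 6.90 in Σ1278b. Of the pheromone-induced genes 4 of 18 were higher and 1 lower, with a median of 0.73. Of the sulfur and methionine genes 2 of 28 were lower and 1 higher, with a median of -0.12. Whether these changes between the pairs exceed culture-to-culture spread was not tested.

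Most genes with signal in S288c only were also called where MSS11 was raised. Of the 36 probe sets with signal in S288c only, 31 were called in the same direction in the second pair, with COS2 at 13.59 in S288c against 4.39 in Σ1278b. Of the 5 with signal in Σ1278b only, 2 were. FLO1 left the background in Σ1278b, with 12.77 in S288c against 6.40 in Σ1278b. FLO11 had 13.10 in S288c against 14.27 in Σ1278b, and its difference was -1.18 in place of -3.60. HMX1, at 6.82 in S288c against 12.01 in Σ1278b, and YAR068W, at 7.33 against 13.08, differed in this pair by -5.19 and -5.75 on the log2 scale.

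**Figure D5:**
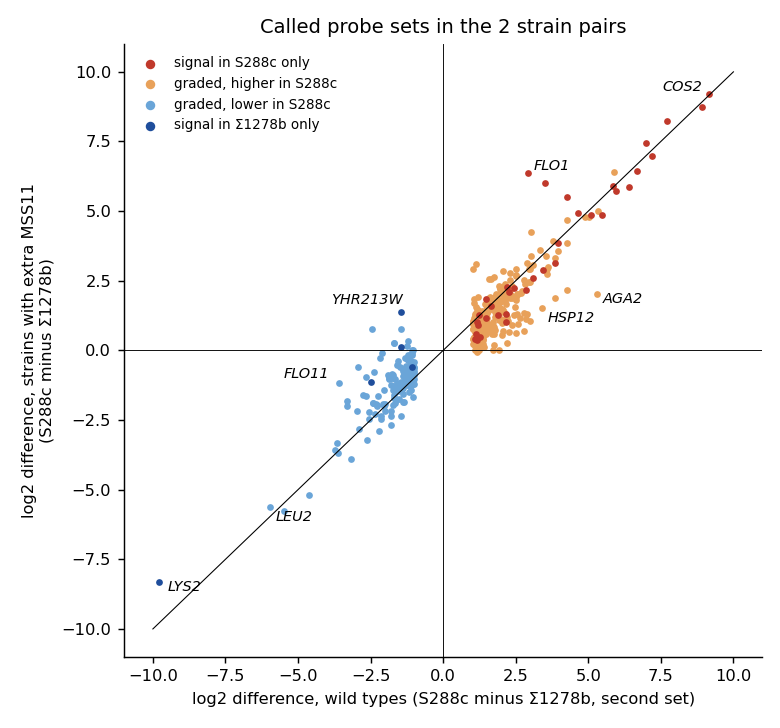
Log2 difference between S288c and Σ1278b in the strains with extra MSS11 (vertical axis) against the wild types (horizontal axis) for the 473 probe sets called between the wild types, with the line of equality. Most points lie in the quadrants of equal sign (462 of 473), FLO1 lies above the line, AGA2 and HSP12 below it, and YHR213W is the one probe set called in opposite directions.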

How the data were processed

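Total RNA was hybridised to Affymetrix Yeast Genome arrays, and the authors deposited linear intensity values, background-corrected and normalized by RMA over all arrays per the labels and the methods. Here log2 of the deposited intensity was taken with no pseudocount. Of 10928 probe sets, 5498 had a S. cerevisiae gene in the platform annotation (12 symbols updated through the RefSeq gene table), 1747 were S. pombe and served as background, and 3683 were not listed. The comparison was S288c wild type minus second-set Σ1278b wild type, 1 array each, with no test. A probe set was called at 2-fold or more with the brighter array above background, the 95th percentile of that array's S. pombe probe sets. Signal in one strain only meant that the dimmer array was at or below background, and the fold is then a bound. Array numbers limit the precision. The background was a log2 signal of 4.77 to 4.90 over the 12 arrays, and 97.4% to 98.5% of S. cerevisiae probe sets exceeded it.

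Gene lists used 1 probe set a gene, the one with the highest mean over 12 arrays. Named genes were up to 20 per strain with signal in that strain only, the 15 largest graded differences each way, all members of the marker, mating type, strain-variable regulator, flocculin and TIR/DAN lists, up to 4 of each other list, and members of runs. The members and the lists were chosen with earlier results of these data known. Alternatives were other folds, backgrounds, scalings and Σ1278b arrays, and a limma fit (version 3.58.1) that borrows its spread from the replicated groups. The scripts were tested on simulated data. The labels state an early stationary harvest and the methods an optical density of growing cultures, and the methods state 3 culture replicates, of which 1 array per strain of the second set was analysed here. The labels do not say whether first-set replicates were separate cultures beyond calling them biological. Values set side by side across genes are not compared in level.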

Additional observations from a re-analysis of the deposited data

Results flagged for a closer look

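YHR213W, a fragment with similarity to FLO1, was called in opposite directions by the wild types and by the strains with extra MSS11. Its log2 difference was -1.46 between the wild types (3.58 in S288c against 5.04 in Σ1278b) and 1.36 with extra MSS11 (9.48 in S288c against 8.12 in Σ1278b). The median of the 5 measured flocculin-like fragments likewise was -1.45 between the wild types and 0.78 with extra MSS11. Neither difference between the pairs was tested, and the wild type signals of YHR213W lie near background.

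Among the 3683 probe sets that the platform annotation does not list with a gene, 35 (0.95%) were called between the wild types, 18 higher and 17 lower in S288c, against 0 of 1747 S. pombe probe sets. These probe sets were not used in any comparison and their targets are not named here.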

How the results depend on the processing

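The total of 473 called probe sets (293 higher, 180 lower in S288c) became 1139 (565 and 574) at 1.5-fold and 146 (107 and 39) at 4-fold. With limma over all 12 arrays and an adjusted p threshold of 0.05, 2368 passed (1041 and 1327), 468 of the 473 among them. That fit assumes that the single arrays vary like the replicated groups. Totals stayed within 1.5 times the main count with no background requirement, another percentile, centring, quantile normalization, 1 probe set per gene, no shared probe sets, each first-set array or their mean (516 to 587), the MSS11 pair (355), and without marker and mating genes (449). The 36 probe sets with signal in S288c only became 58, and the 5 with signal in Σ1278b only became 9, with background at percentile 99. The 5 became 2 at 4-fold, at percentile 90, and where every array of the strain had to be dim. The next choices were added after seeing the data. The count of 345 held probe sets became 351 to 449 when 1 of the 4 Σ1278b wild type arrays was left out, and the count with signal in S288c only was 34 at 1 probe set per gene. Among the 179 called named probe sets and the 19 lists whose median was at least 0.5 in size, the sign turned against the first-set mean for AQR1 (-0.11), COS10 (-0.75), PAU14 (-0.50), PAU8 (-0.11), PHM8 (-0.38) and THI73 (0.96). With extra MSS11 it turned for AQR1 (-0.062), YAR064W (0.12), YHR213W (1.36) and YHR213W-A (0.78), and for the medians of flocculin-like fragments (0.78) and histidine synthesis (-0.055). Of the 86 named probe sets not called, the sign turned in 9 against the first-set mean, 18 with extra MSS11 and 4 after centring, and of the 36 lists with smaller medians in 8, 9 and 4. The cause was not tested. No paired analysis was possible because the groups compared share fewer than 2 replicate numbers.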
